A study of Mus musculus
Mus spretus with 18 samples.

Results

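Alb, Apoa1, Apob, Ttr, Fga, Fgb, Trf, Hp, Cps1 and Ambp are 10 mouse genes that the liver transcribes at very high levels, all but Cps1 for plasma proteins. They were chosen by name, from 38924 genes in the expression table, and all 10 have a row there. In the liver tables of skipped exons, 62 of 24219 events lie in these genes, and 55 of 18937 events with reads given to an allele. Of the 62, 19 lie in Alb, 15 in Trf, 14 in Cps1, 4 in Ambp, 3 in Fgb, 2 each in Apoa1 and Ttr, and 1 each in Apob, Fga and Hp. Hp has no event in the allelic table.

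Plasma proteins are made mainly by hepatocytes, which secrete them into the blood. Albumin (Alb) holds fluid in the vessels and carries fatty acids, and apolipoproteins A-I and B (Apoa1, Apob) are the main structural proteins of HDL and of VLDL and LDL. Transthyretin (Ttr) carries thyroid hormone and retinol-binding protein, transferrin (Trf) carries iron, haptoglobin (Hp) binds free haemoglobin, Fga and Fgb encode the Aα and Bβ chains of the clotting protein fibrinogen, and Ambp encodes a precursor that is cut into α1-microglobulin and bikunin. Cps1 differs from the rest, since carbamoyl phosphate synthetase 1 stays in the mitochondria of the hepatocyte as the entry enzyme of the urea cycle.

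RNA-seq was performed on F1 hybrids of a C57BL/6J mother and a SPRET/EiJ father. Cerebral cortex, heart, kidney, lung, spleen and liver came from 8-week-old mice, female by the study's methods, beside F1 embryonic stem cells (ESC) and F1 fibroblasts given either DMSO or the splicing inhibitor pladienolide B (0.1 μM) over 4 h, with 2 samples per group and 18 in all. The strain label of the liver samples reads C57BL/7J x SPRET/EiJ in 1 and C57BL/8J x SPRET/EiJ in the other, and these samples were used as C57BL/6J x SPRET/EiJ, as the study describes them. By the study's methods the organs came from 2 animals and the ESC from 2 independent clones. The spread between the 2 samples of an organ or of ESC is therefore between animals or clones. The liver data were taken from an earlier study by the same authors, on the same animals by the paper's account. Where liver is compared with another tissue, tissue and study of origin therefore cannot be told apart. The labels do not say which sample came from which animal. The splicing tables hold both libraries of a tissue as a list, and they are called here the first-listed and the second-listed library. Whole organs were sampled, so fewer cells of a type and less RNA per cell cannot be told apart.

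Hepatocyte markers were present in the liver libraries. All 8 markers on a fixed list (such as Cyp2e1, Cyp3a11 and Tat) were higher in liver, and their summed level was 20768 and 17860 TPM in liver, 1423 and 1555 TPM in kidney, and 1.84 to 32.9 TPM in the other tissues. Of 6 Kupffer cell markers with a row 4 were higher in liver, of 5 liver endothelial markers 3, of 5 stellate cell markers 3, and of 5 bile duct and 5 erythroid markers 0. All 4 kidney proximal tubule markers were lower in liver, where they summed to 0.0980 and 0.0521 TPM. Of all 21925 genes tested, 1748 were called higher in liver and 14775 lower, so most genes were called lower. Oligodendrocyte markers summed to 2.09 and 1.83 TPM over 6 genes, and neutrophil markers to 13.8 and 8.84 TPM over 7. Choroid plexus markers summed to 121 and 133 TPM over 8 genes, mostly from Prlr and Enpp2, with Kcnj13 and Otx2 at 0, and visceral endoderm markers to 74.4 and 71.3 TPM over 8.

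Transcript levels. The unit is TPM, a transcript abundance that is corrected for transcript length and scaled to the same total in each library, so that levels may be compared between genes. Alb was the most abundant gene in both liver libraries, at 84064 and 103050.2 TPM. This is 8.41% and 10.3% of all TPM in those libraries. The 10 genes together held 129978 and 151550.3 TPM in liver, 15.2% of the total in replicate 2. Their share was 0.000263% to 0.369% in the other tissues. All 10 ranked among the 126 most abundant genes of either liver library.

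The carriers of lipid, hormone and iron followed albumin. Apoa1 was at 10287 and 10543 TPM, Ttr at 9823 and 9763 TPM, and Trf at 6526 and 7825 TPM. The fibrinogen chains were at 5674 and 6395 TPM (Fgb) and at 3213 and 3781 TPM (Fga). Hp was at 4089 and 3654 TPM, Ambp at 3443 and 3351 TPM, Cps1 at 1946 and 2235 TPM, and Apob at 914 and 953 TPM. In the order of mean liver levels, the libraries of neighbours overlapped for Hp and Fga and for Fga and Ambp. Those of Trf and Fgb did not overlap, but the gap between them was smaller than the difference between the 2 Trf libraries.

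All 10 genes were higher in liver than in the mean of the other 6 tissues, by limma on log2(TPM + 0.1) with an adjusted p under 0.05 and a log2 difference of at least 1. The same rule called 7.97% of the 21925 genes tested. Cps1 passed the filter on low values (at least 1 TPM in at least 2 libraries) through its liver libraries alone, so that it had to differ, and 9 genes were tested when either liver library was left out. The log2 differences ran from 7.25 ± 0.56 (SE, Trf, adjusted p = 6.47e-07) to 16.91 ± 1.07 (Alb, adjusted p = 1.57e-07). Since the genes were picked as liver genes, this serves as a check of the choice. TPM are shares of a library, and the median over all genes tested was −1.52 on the same scale.

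**Figure D1:**
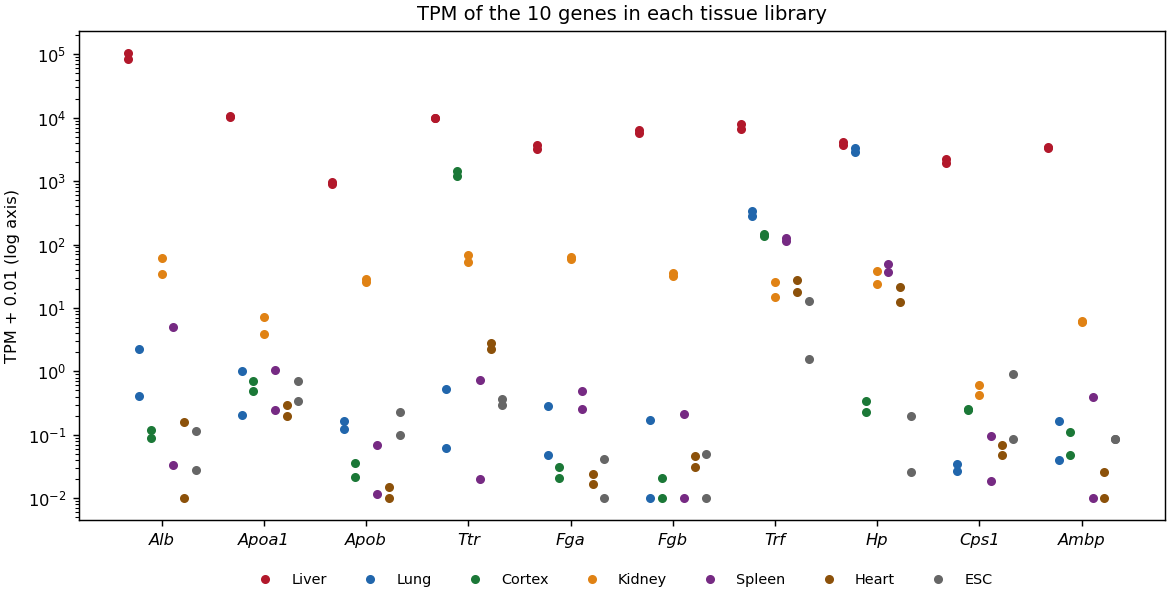
TPM + 0.01 (log axis) of the 10 genes in the 14 tissue libraries, 1 point per library, colours for tissues. The red liver points lie on top for each gene, the lung points of Hp (2906 and 3350 TPM) come within reach of its liver points, and the cortex points of Ttr (1422 and 1223 TPM) come next to its liver points.

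Tissue by tissue, all 10 genes were higher in liver than in cortex, heart, kidney, spleen and ESC, and 9 of 10 than in lung. The same call was made for 10.5% of genes against cortex, 11.9% against heart, 5.82% against kidney, 10.1% against spleen, 13.2% against ESC and 8.10% against lung. The exception was Hp, at 2906 and 3350 TPM in lung, below both liver libraries. Its liver level was 1.24 times that of lung, a log2 difference of 0.31 ± 0.42 (limma, adjusted p = 0.524). Under quantile normalization this difference turned to −0.80. Hp had the lowest liver share of the 10 genes, since liver held 54.6% of its TPM summed over the 7 tissue means. It was also read in spleen (37.3 and 49.2 TPM), kidney (23.8 and 38.3 TPM), heart (12.2 and 21.1 TPM) and fibroblasts (19.4 and 18.2 TPM with DMSO, 21.9 and 22.5 TPM with pladienolide B), and was at or below 0.331 TPM in each cortex and ESC library.

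Ttr had the second lowest liver share of summed TPM. Cortex had 1422 and 1223 TPM, 7.40-fold below liver in mean TPM, with a log2 difference of 2.89 ± 0.83 (limma, adjusted p = 0.00866). This call was lost with a pseudocount of 0.01 and under quantile normalization, where the difference was 1.20, and 9 of the 10 genes were then called higher than in cortex. Liver held 87.6% of its summed TPM. Ttr is known as a product of the choroid plexus, the tissue in the brain ventricles that makes cerebrospinal fluid. The choroid plexus markers summed to 573 and 522 TPM in cortex, with none of the 8 at 0. Most of this sum came from 1 gene, Enpp2, at a mean of 473 TPM, and Otx2 was at 4.93 TPM. The same list summed to 1490 and 1479 TPM in kidney. The part of these cells in the Ttr level was not tested. Kidney had 53.2 and 67.8 TPM of Ttr, and heart, lung, spleen and ESC 0.00983 to 2.78 TPM per library.

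Trf was read in each tissue. The lung libraries had 285 and 341 TPM, cortex 148 and 135 TPM, spleen 113 and 125 TPM, heart 17.7 and 28.0 TPM, kidney 15.0 and 26.0 TPM, and ESC 12.7 and 1.57 TPM. The lung libraries lay above those of cortex, cortex above spleen, and the 2 ESC libraries differed more from each other than heart differed from kidney. Against lung, the closest tissue, the log2 difference was 4.52 ± 0.73 (limma, adjusted p = 0.000223).

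For the remaining 7 genes, kidney had the second highest mean. Fga was at 64.3 and 59.1 TPM in kidney, Alb at 33.9 and 61.0 TPM, Fgb at 31.5 and 35.3 TPM, Apob at 28.8 and 25.8 TPM, Ambp at 6.19 and 5.90 TPM, Apoa1 at 3.89 and 7.20 TPM, and Cps1 at 0.416 and 0.604 TPM. For Cps1 the order of kidney and ESC is not settled, since the ESC libraries had 0.90 and 0.0747 TPM, on both sides of the kidney libraries. Liver exceeded kidney 34.2-fold for Apob, 56.7-fold for Fga, 181-fold for Fgb, 562-fold for Ambp, 1878-fold for Apoa1, 1973-fold for Alb and 4097-fold for Cps1 in mean TPM. Apob thus kept the smallest distance and Cps1 the largest.

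In the low range, some libraries differed for many of the genes at once. Alb was at 4.98 TPM in spleen replicate 1 and 0.0235 TPM in replicate 2, and 8 of the 10 genes were higher in spleen replicate 1. Alb was at 0.403 TPM in lung replicate 1 and 2.21 TPM in replicate 2, and 9 of the 10 were higher in lung replicate 2. The summed hepatocyte markers were 6.12 and 6.70 TPM in the spleen libraries and 32.0 and 32.9 TPM in the lung libraries. The part of hepatocyte RNA in these low values was not tested. Cps1 is listed at 0 in all fibroblast libraries.

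Other genes of the same pathways had the same direction. The lists were fixed with earlier results of these data known. All 12 genes on the list of other apolipoproteins were higher in liver than in the mean of the other tissues. That list also holds Mttp, which is not an apolipoprotein gene. Higher in liver too were all 14 genes of coagulation and fibrinolysis, all 18 of acute phase and transport, all 15 of complement and all 7 of the urea cycle. Of 14 hepatocyte transcription factors 13 were higher, and Cebpb was not called (17.5 and 20.9 TPM in liver, log2 difference 0.51 ± 0.62, limma adjusted p = 0.442). None was lower. The median log2 difference was 9.73, 9.45, 9.82, 8.44 and 4.98 over these 5 lists and 5.67 over the factors, against −1.52 over all genes tested.

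The most abundant genes of each list compare with the 10 as follows. Apoa2, the second protein of HDL, was at 24191 and 19876 TPM in liver, above Apoa1, and Apoe was at 13121 and 12447 TPM. Fgg, the third fibrinogen chain, was at 5438 and 6244 TPM, close to Fgb, and antithrombin (Serpinc1) at 2435 and 2237 TPM. Fetuin-A (Ahsg) was at 12549 and 13374 TPM and the vitamin D binding protein (Gc) at 7738 and 7440 TPM. C3, the central complement protein, was at 4123 and 5152 TPM and mannose-binding lectin Mbl2 at 1047 and 917 TPM. Beside Cps1, Ass1 was at 2722 and 2255 TPM and Arg1, the arginase that releases urea, at 1212 and 1158 TPM. Hnf4a, a nuclear receptor of hepatocytes, was at 191 and 220 TPM, lower than its mean of 325 TPM in kidney, and the factor Cebpa was at 174 and 185 TPM.

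The genes whose profile over the 14 tissue libraries was most like the mean standardised profile of the 10 were Serpina3k (Pearson r = 0.99), Apoh (0.989), Gm20319 (0.988), Cyp3a11 (0.986) and Rdh9 (0.986). The points share their libraries, so that these values are a description. Alb, Ambp and Apoa1 followed the mean profile most closely among the 10 (r = 0.987, 0.987 and 0.983), and Hp, Ttr and Trf least (0.635, 0.739 and 0.777).

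Exon skipping in liver. An event is an exon with the exons on both sides of it. Junction reads either include the exon or join its neighbours directly, and PSI (percent spliced in) is the included share after correction for the length of each form. The skipping rate given here is 100% minus PSI. Inclusion reads come from 2 junctions and skipping reads from 1, so that the rate is higher than the plain share of skipping reads. Each of the 62 events, which the tool rMATS listed and counted, had a skipping read in at least 1 library, and exons without an event are not described. The most deeply read event of Alb had 2897396 and 2682364 junction reads in the 2 libraries. The corresponding event had 819212 and 730922 reads in Trf, 632238 and 555856 in Ttr, 540857 and 482213 in Apoa1, 192237 and 190529 in Fgb, 168353 and 180977 in Fga, 159076 and 129580 in Hp, 129942 and 119383 in Ambp, 90711 and 80509 in Cps1, and 76977 and 71508 in Apob. Events of the 10 genes held 27.2% and 30.7% of the junction reads summed over all liver events, in which a read can count for several events.

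Of the 62 events, 59 had at least 20 reads in both libraries, and the other 3 (2 in Trf and 1 in Cps1) are not used below. Their median skipping rate was 0.00889%, against 1.17% over the 22079 liver events that met the same minimum. It was 0.00100% without the second-listed library and 0.00910% without the first-listed one, and 27 of the 59 events had 0 skipping reads in at least 1 library. In 47 of the 59 (79.7%) it was below 0.1%, against 11.4% over all events. It exceeded 1% in 4 and 10% in 1 (1.69%, against 19.3% over all events). Depth moves with this value: the median depth was 335426.5 reads per library for the 59 events and 501.5 for all. Each of the 22079 events had a skipping read, since the lowest mean rate was 8.26e-05%. At 501.5 reads per library, 1 skipping read already gives a mean rate above 0.1%. Shallow events therefore could not fall below that limit, and the shares below 0.1% cannot be compared apart from depth. Among the 126 events of other genes with at least 100000 reads per library the median was 0.0227%, and among the 40 of the 10 genes 0.00324%. These 2 sets were not matched in depth, at medians of 149426 and 590718 reads per library. The part of depth in the difference was not tested.

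**Figure D2:**
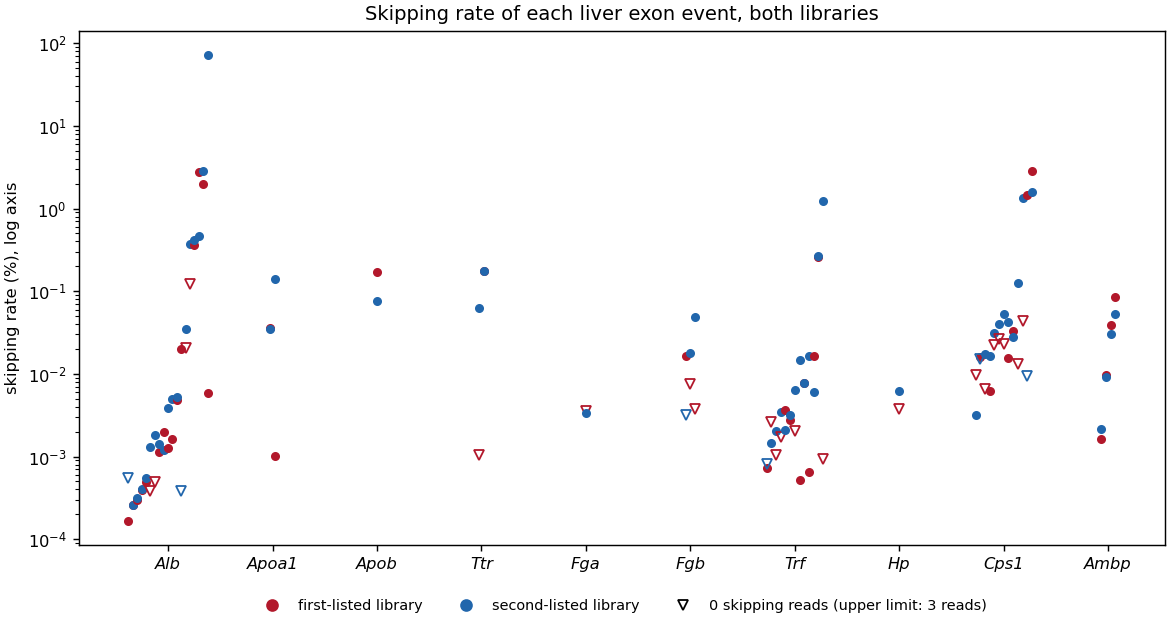
Skipping rate (%, log axis) of the 59 events with at least 20 reads in both liver libraries, grouped by gene and ordered by rate, with a point per library. Open triangles stand at the upper limit allowed by 3 reads where a library had 0 skipping reads. Most points lie below 0.1%, and pairs with a wide vertical gap had skipping reads mainly in 1 library.

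For each gene, the most deeply read event and the event with the highest mean rate are given, and the others named below were chosen after their values were seen. Positions are on mm10. In Alb (chromosome 5, plus strand) the most deeply read exon, of 133 nt at 90474567 to 90474699, was skipped in 69 and 71 reads. Its rate was 0.00476% and 0.00529%, and the 95% Clopper-Pearson intervals overlapped. These intervals, and the limits given for 0 reads, cover counting error only, since reads are not independent molecules.

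The highest rate in Alb was that of a 130-nt exon at 90467344 to 90467473, when joined from the exon that ends at 90464985 to the one that starts at 90470741. It was 0.00593% in the first-listed and 72.8% in the second-listed library, from 1 and 10335 skipping reads. The mean of 36.4% (SD 51.5, n = 2) describes neither library. The event held 0.929% as many reads as the deepest Alb event. Its inclusion reads contain the junction from 90464985 to 90467344, which is itself the skipping junction of the exon before it, so the rate is not that of the exon in all Alb transcripts. On both alleles the second-listed library was high (74.7% on C57BL/6J and 76.1% on SPRET/EiJ).

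A few Alb events lay between these extremes. The 98-nt exon at 90465874 to 90465971 was skipped at 2.76% in the first-listed and 0.465% in the second-listed library, a 5.93-fold gap, on 29456 and 5646 skipping reads. Skipping of that exon together with the 130-nt exon stood at 2.01% and 2.88% (11784 and 18383 reads). The intervals of the 2 libraries did not overlap in either event. The joint event had 1151066 and 1238831 inclusion reads. Of its 2 inclusion junctions, the one from 90464985 to 90467344 is the skipping junction of the 98-nt exon, with only 29456 and 5646 reads. The correction for 2 junctions therefore raises the joint rate, which is not that of both exons in all Alb transcripts. The 68-nt exon at 90475269 to 90475336 was skipped in 4778 and 5112 reads, at 0.362% and 0.416%.

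Of the lipid carriers, Apoa1 (chromosome 9) had its deepest event at a 154-nt exon, 46229116 to 46229269, with 98 and 84 skipping reads and rates of 0.0362% and 0.0348%. The libraries overlapped there. Its 62-nt exon, 46228938 to 46228999, was skipped in 2 reads of the first-listed and 254 reads of the second-listed library, 0.00101% against 0.141%, with no overlap. The 1 event of Apob (chromosome 12), a 115-nt exon at 8013716 to 8013830, had 65 and 27 skipping reads, and its rates of 0.169% and 0.0755% did not overlap in their intervals either.

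Ttr had nearly the same rate in both libraries, at 0.177% (interval 0.163 to 0.193%) and 0.175% (0.160 to 0.191%) for a 136-nt exon, on 561 and 486 skipping reads. Its 131-nt exon had 0 skipping reads in the first-listed library, which allows a rate of up to 0.00104%, and 155 reads (0.0623%) in the second-listed one.

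The fibrinogen genes and Hp had few skipping reads. Fga (chromosome 3) had 0 and 3 skipping reads at its 146-nt exon, 83030185 to 83030330, and the 0 allows up to 0.00356%. Fgb (chromosome 3, minus strand) had 16 and 0 reads at its most deeply read exon (114 nt, 83044219 to 83044332) and 0 and 43 reads at its highest (195 nt, 83046654 to 83046848, 0.0491% in the second-listed library). Hp (chromosome 8, minus strand) had 0 and 4 reads at its 75-nt exon, 109576705 to 109576779, at 0.00613% in the second-listed library.

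Trf (chromosome 9, minus strand) covered a wide range. Its most deeply read exon (184 nt, 103210495 to 103210678) had 3 and 0 skipping reads, and the 0 allows up to 0.000821%. Its highest was a 178-nt exon, 103222051 to 103222228, with 0 and 4513 reads, so that the rate was under 0.000936% in one library and 1.24% in the other. A 33-nt exon, 103219223 to 103219255, was skipped at 0.256% and 0.263% (289 and 334 reads), with overlapping intervals. With the adjacent exon ending at 103217533 rather than 103217518, the same exon was skipped at 0.0166% and 0.00598% (46 and 18 reads).

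In Cps1 (chromosome 1) the most deeply read exon (99 nt, 67220503 to 67220601) had 0 and 7 skipping reads. The next exon along the gene, of 60 nt at 67227124 to 67227183, had the highest rate, at 2.87% (1241 reads) and 1.59% (599 reads), and the intervals did not overlap. A 76-nt exon, 67206756 to 67206831, had 474 and 0 reads, the reverse order of a 99-nt exon at 67160859 to 67160957 with 0 and 138 reads. In Ambp (chromosome 4, minus strand) the 143-nt exon at 63152584 to 63152726 was both the most deeply read and the most skipped, at 0.0862% and 0.0536% (56 and 32 reads), with overlapping intervals.

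Over the 59 events, the 95% intervals of the 2 libraries lay apart in 24 (40.7%), against 7.69% of all liver events and 34.1% of the other genes' events with at least 100000 reads. Among the 36 events with at least 10 skipping reads in a library, 13 (36.1%) had 0 in the other library. This share was 10.5% over all liver events and 21.5% in the deep events of other genes. Depth was not matched in these comparisons. In 3 of the 13 the reads were in the first-listed library and in 10 in the second-listed one. On the alleles, 9 of the 13 had skipping reads from both and 4 from 1, and the 13 events held 11 distinct junctions. By exon length, the median rate was 0.00912% for the 20 events whose exon length is a multiple of 3 and 0.00845% for the other 39. Events whose skipping junction spans 1 listed exon had a median of 0.0178% (38 events), and those that span 2 or more 0.00287% (21 events). Depth differed in both splits. The median was 96398 reads per library for lengths that are a multiple of 3 and 594047 for the others. It was 169705 reads for junctions over 1 listed exon and 1090625 for those over 2 or more. The part of depth in these medians was not tested.

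The 2 alleles in liver. The parents differ in sequence, so reads that cover a difference can be given to the C57BL/6J or the SPRET/EiJ allele, which share each nucleus. Allelic skipping rates were compared in a quasi-binomial model of inclusion and skipping reads with limma's moderated dispersions. An adjusted p under 0.05 was reached by 1 of 54 events of the 10 genes, while 1.52% of all 13563 events reached it. With an added PSI difference of at least 0.1 it was 0 of 54, against 0.922%. The difference in skipping rate furthest from 0 among the 54 was −3.38 percentage points (C57BL/6J minus SPRET/EiJ, in Alb). A PSI difference of 0.1 therefore did not occur, and this 0 was fixed by the low rates. An unadjusted p under 0.05 was reached by 4 of 54 events, against 10.96% of all events. The median absolute difference between alleles was 0.00747 percentage points, against 0.993 over all events tested, and skipping was higher on C57BL/6J in 26 events and on SPRET/EiJ in 28. In simulated data this fit recovered 4% of the smaller and 49% of the larger changes. Few calls therefore do not show that few events differ.

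The 1 event called was the 68-nt exon of Alb. On the C57BL/6J allele it was skipped at 0.665% (interval 0.647 to 0.684%) and 0.745% (0.725 to 0.766%), from 4758 and 5090 reads. On the SPRET/EiJ allele it was skipped at 0.00241% and 0.00343%, from 14 and 18 reads. The alleles did not overlap, and C57BL/6J carried 99.7% of the skipping reads given to an allele. The rate was 241-fold higher on C57BL/6J (adjusted p = 0.000920). Both alleles were read in the same libraries, and with the library as a block the adjusted p was 0.613, in a fit that called 0 of 13563 events. In simulated data the block fit recovered 0% of the changes, smaller or larger. The count of calls also depends on how dispersions were moderated. The fit as first planned raised each dispersion to at least 1 before moderation and called 5 of the 54 events, against 3.97% of all events. It was replaced after these counts were seen. In simulated data the planned fit recovered 19% of the smaller and 83% of the larger changes. Of its calls 30.1% were false, against 3.64% in the main fit.

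**Figure D3:**
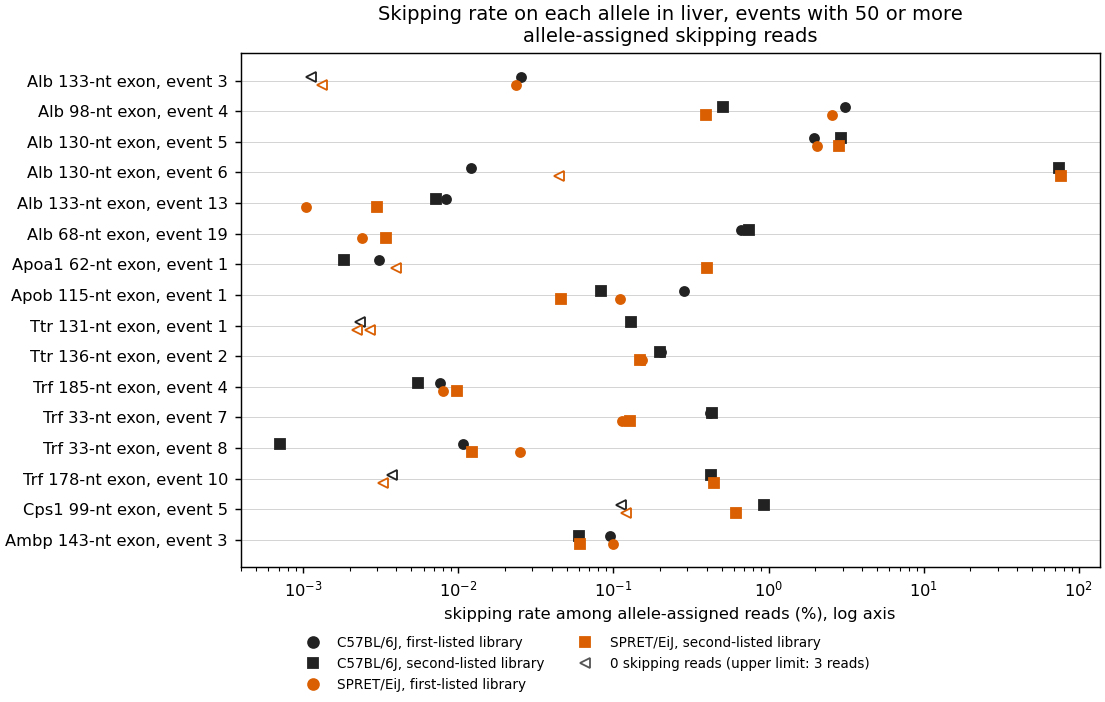
Skipping rate (%, log axis) on the C57BL/6J allele (black) and the SPRET/EiJ allele (orange) in liver for the 16 events with at least 50 skipping reads given to an allele, with a circle for the first-listed and a square for the second-listed library. Open triangles stand at the upper limit allowed by 3 reads. Black and orange lie far apart in both libraries for the 68-nt exon of Alb (event 19), and lie together in each library for its 98-nt and 130-nt exons.

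The 33-nt exon of Trf had the next lowest adjusted p. It was skipped at 0.418% and 0.431% on C57BL/6J (184 and 209 reads) and at 0.114% and 0.128% on SPRET/EiJ (57 and 72 reads). The groups did not overlap, the rate was 3.50-fold higher on C57BL/6J, and the adjusted p was 0.0583. With the longer adjacent exon the order was the opposite, with 14 and 1 reads on C57BL/6J and 32 and 17 on SPRET/EiJ (adjusted p = 0.600). The 136-nt exon of Ttr was at 0.201 ± 0.00167% (SD, n = 2) on C57BL/6J and 0.150 ± 0.00402% on SPRET/EiJ, with no overlap and an adjusted p of 0.571 from the same model.

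Some differences rested on 1 library. All 155 skipping reads of the 131-nt Ttr exon were C57BL/6J reads of the second-listed library (adjusted p = 0.470). For the 62-nt exon of Apoa1, 253 SPRET/EiJ and 1 C57BL/6J reads stood in the second-listed library, against 0 and 2 in the first-listed one (adjusted p = 0.529). The 178-nt Trf exon, with skipping in the second-listed library, had 393 C57BL/6J and 462 SPRET/EiJ reads (0.429% and 0.442%).

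Few reads of some events could be given to an allele. For the 60-nt exon of Cps1 this was 2.39% of skipping reads against 75.9% of inclusion reads, and for the 154-nt exon of Apoa1 6.59% against 44.2%. The allelic rates of these exons are therefore far below the rates over all reads: in Cps1 0.127% and 0.0413% on C57BL/6J and 0.0768% and 0.0374% on SPRET/EiJ, against 2.87% and 1.59%.

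The balance of the alleles themselves was read from the event of each gene with the most reads given to an allele. In Ambp (117-nt exon), Apoa1 (62-nt exon) and Fgb (195-nt exon) this is not the event with the most reads in all. Unequal alleles (adjusted p under 0.05 and a C57BL/6J share below 40% or above 60%) were found in 1 of 9 genes, and in 22.4% of the 6236 genes tested. That gene was Ambp, with 36.4% and 36.0% of reads from C57BL/6J (mean 36.2 ± 0.231% SD, n = 2, adjusted p = 7.87e-05). Apob (44.3% and 45.4%, adjusted p = 0.00540) and Apoa1 (45.9% and 46.3%, adjusted p = 0.0182) were below equality but inside the limits. The shares of the other 6 lay between 47.1% and 53.1% in each library, with Alb at 51.3% and 53.1%. The median over all genes was 50.2%, with quartiles of 44.1% and 56.6%.

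**Figure D4:**
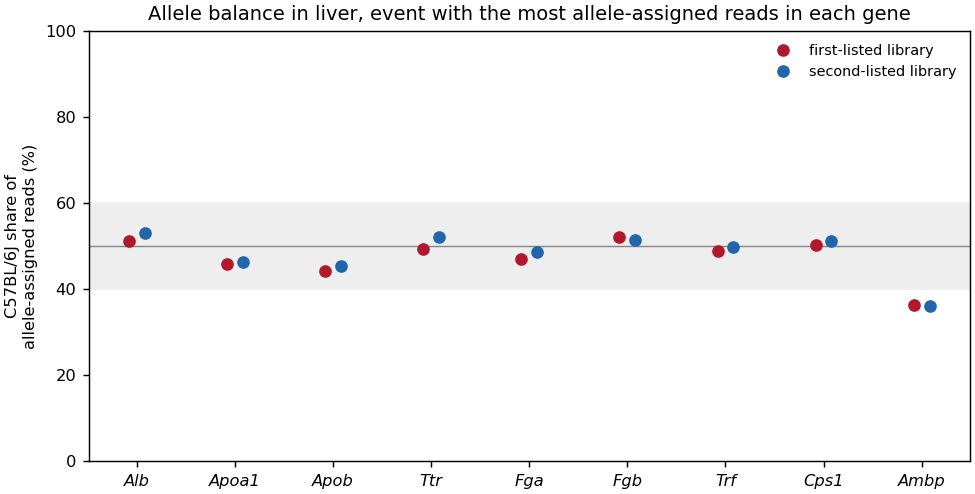
C57BL/6J share (%) of the reads given to an allele in liver, at the event with the most such reads in each of 9 genes, with a point per library. The grey band marks 40% to 60%, and Ambp alone lies outside it, at 36.4% and 36.0%.

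Exon inclusion in other tissues. Of the liver events, 4 could also be measured in another tissue, in 12 comparisons. In 0 of 12 was a difference called (adjusted p under 0.05 and a PSI difference of at least 0.1, in the same kind of model). The calls over all events were 15.0% against cortex, 10.8% against heart, 1.85% against kidney, 4.92% against lung, 5.57% against spleen and 3.26% against ESC. All rates in these comparisons were at or below 1.59%, so a PSI difference of 0.1 did not occur. The lowest adjusted p was 0.0592, and 2 of 12 comparisons had an unadjusted p under 0.05.

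The 33-nt exon of Trf was measured in 5 other tissues. In lung its rate was 0.229% and 0.291% (14 and 17 skipping reads) and in cortex 0.325% and 0.204%, close to the liver rates of 0.256% and 0.263%. In heart it was 1.24% and 0%, in kidney 0% and 0.241%, and in spleen 0.0586% and 0.230%, with at most 5 skipping reads per library. The intervals of all these tissues except heart's first-listed library reach the liver rates. The 185-nt exon of Trf, at 0.00782% and 0.00774% in liver, had 7 and 1 skipping reads in cortex (0.172% and 0.0277%, adjusted p = 0.0984), 0 and 1 in lung, 3 and 0 in spleen, and 1 and 0 in ESC.

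The 136-nt exon of Ttr was skipped at 0.165% and 0.249% in cortex and at 0.989% and 0.322% in kidney, on 14 and 6 skipping reads in the latter (adjusted p = 0.648). The 115-nt exon of Apob was at 1.38% and 1.59% in kidney (12 and 13 reads) against 0.169% and 0.0755% in liver. The libraries of the 2 organs did not overlap, and PSI was 1.36 percentage points lower in kidney (adjusted p = 0.0592). In lung, where Hp is close to its liver level, its listed event is another exon (102 nt, 109577130 to 109577231), with 0 and 2 skipping reads beside 108376 and 105692 inclusion reads.

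**Figure D5:**
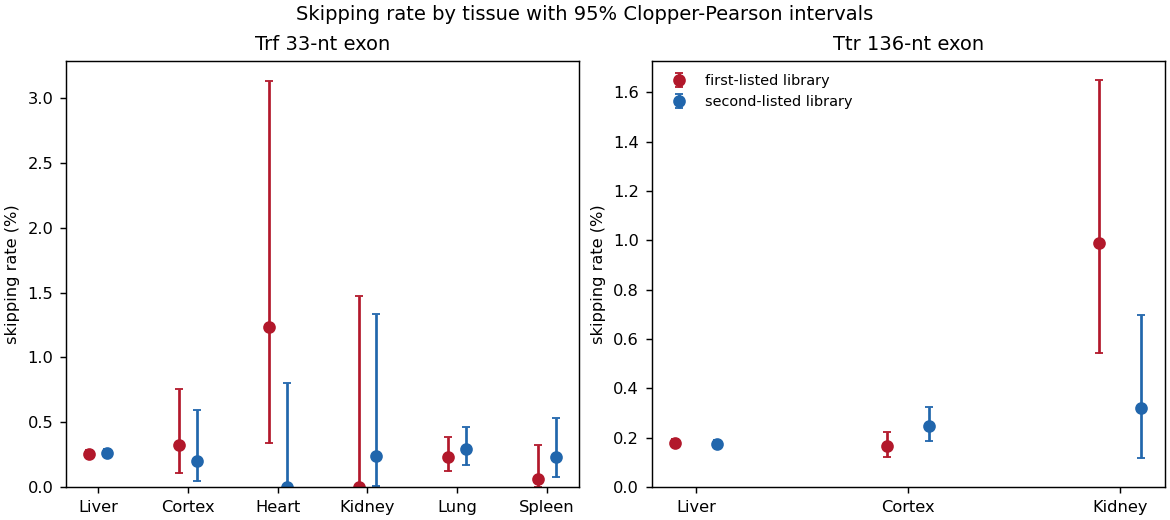
Skipping rate (%) of the 33-nt exon of Trf (left) and the 136-nt exon of Ttr (right) by tissue, with a point per library and bars for 95% Clopper-Pearson intervals. The bars are short in liver and long in heart and kidney, where few reads cover the exons, and lung and cortex lie close to liver for Trf.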

How the data were processed

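Reads were aligned to mm10 with HISAT2 2.0.1, per the submitters' processing notes. The deposited TPM values, per gene and library, were used as the authors made them. Skipped-exon events were counted with rMATS by the authors, whose deposited tables list inclusion and skipping junction reads of both libraries of a tissue, over all reads and per allele, with effective lengths (a score here) that correct each form. The lists give no replicate numbers.

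PSI was recomputed from these reads. Events needed 20 reads in both libraries. TPM were compared with limma 3.58.1 (R 4.3.3) on log2(TPM + 0.1), over genes with a TPM of at least 1 in at least 2 of the 14 tissue libraries. Junction reads were compared in a quasi-binomial model with dispersions moderated by limma, left out where PSI of allele-assigned and all reads differed by over 0.1. Adjustment was by Benjamini-Hochberg over all features tested. Scripts were tested on simulated data. The plan set dispersions to at least 1 before moderation. This was changed, after its counts of calls had been seen, to a minimum of 1 on the moderated value, since the planned fit called too many unchanged events in simulated data with unequal dispersions; its counts are given as an alternative. C57BL/6J and SPRET/EiJ reads at the same list position belong to 1 library: their inclusion reads summed to the assigned total in 100% of events. Library differences of both alleles correlated at 0.0986 over 13819 events.

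Named were all 10 genes, the deepest and most skipped event of each, events over 10% skipping, allelic calls, the 2 most abundant genes per list and the 5 most alike genes. Genes and lists were chosen with earlier results of these data known. Alternatives were other pseudocounts, filters, scalings, read minimums, priors, a replicate block and leaving out libraries. Promoter and transcript sequences were not used here.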

Additional observations from a re-analysis of the deposited data

How the results depend on the processing

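Of 780 values under alternatives, 771 were kept. Single differences had to keep their direction and their side of the threshold. Counts and the median rate had to stay within a set fold of the main value. By this rule, 9 genes higher in liver without a liver library counted as kept beside the main 10. The number of events of the 10 genes with an allelic difference was 1, and became 0 with the library as a replicate block, 0 when events whose PSI was close to 0 or 1 were dropped (which left 1 event of these genes), 2 with a prior without depth trend and 5 with dispersions raised to 1 before the prior, the fit as first planned, which was made the alternative after seeing the data. The median skipping rate ran from 0.00100% without the second-listed library to 0.00910% when a library was left out. Hp turned to −0.80 on the log2 scale against lung under quantile normalization. Ttr against cortex lost its call with a pseudocount of 0.01 (2.89) and under quantile normalization (1.20), and the Alb 68-nt exon lost its call under the library block. The causes were not tested.

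Whether a replicate number marks the same animal across organs is not given in the sources used here. Replicate differences correlated at −0.0368 to 0.173 over 21 pairs of tissues, 4 of them over 0.1. With the number as a replicate block the 10 genes called higher in liver stayed at 10 against the mean, cortex, heart, kidney, spleen and ESC and at 9 against lung, and exon inclusion between tissues stayed at 0. With the library block, events with an allelic PSI difference of at least 0.1 stayed at 0. These counts of 0 could not change, since no tested event of the 10 genes reached a PSI difference of 0.1. The library block also called 0 of all 13563 events.

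With 2 libraries per group, spread is poorly known. A rate on fewer than 3 skipping reads lies below the limit that a count of 0 allows.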
